A study of Mus musculus with 24 samples.

Results

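The 10 genes described here are Srebf1 and 9 genes of de novo lipogenesis, the making of fatty acids from acetyl-CoA: Slc25a1, Acly, Acaca, Acacb, Fasn, Elovl6, Scd1, Me1 and Thrsp. Members were the probes whose gene name in the scanner files was exactly 1 of these symbols, which gave 23 of the 56605 probes on the array. Of the 23, 19 were bright enough to be tested, among 30003 probes tested in all, and each gene had at least 1 tested probe. The brightest tested probe stands for a gene unless another is named. RNA came from the liver of male C57Bl6J mice of the third generation, 1 array in 1 colour per mouse, and all mice were killed while fasting. The HFepa group (labelled HFD_O3, 7 mice) came from a lineage bred over generations on a growing diet supplemented with fish oil. Fish oil is a source of eicosapentaenoic acid (EPA). These mice then received a high-fat, high-sucrose diet to make them obese. The HFoleic group (HFD_Cont, 8 mice) received that same obesogenic diet but came from a control lineage supplemented with high-oleic sunflower oil. The reference group (STD_Cont, 9 mice) belonged to that oleic lineage and was fed a low-fat diet. The EPA lineage had no group on the low-fat diet, so the effect of the lineage without the obesogenic diet cannot be told apart. The labels do not give the age of the mice. The question was how the obesogenic diet changed expression in the liver, and whether the EPA supplement of the lineage altered that change. The groups do not separate intake by earlier generations from early intake by the mice themselves.

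Srebf1 encodes SREBP-1, a membrane-bound transcription factor that is released by proteolysis and switches on genes of fatty acid synthesis. In the liver its form SREBP-1c is raised by insulin and by the nuclear receptor LXR, and ChREBP, encoded by Mlxipl, does the same job in response to glucose. Mitochondrial citrate leaves through the carrier Slc25a1, is split to acetyl-CoA by Acly, and is carboxylated to malonyl-CoA by Acaca and Acacb. Fasn then builds palmitate with NADPH that comes in part from Me1, Elovl6 lengthens it, and Scd1 puts in a double bond. Thrsp (Spot 14) is a small protein that accompanies the pathway and responds to thyroid hormone and feeding. Bulk liver was measured, so fewer cells of a type and less RNA per cell cannot be told apart.

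The arrays lay on 3 slides of 8, each slide holding mice of all 3 groups, and 50.9% to 60.8% of probes were well above background. The summed signal of 6 hepatocyte markers was between 615000 and 738000 on every array, as labelled for liver. Of the marker genes for liver cell types, Cps1 of the 6 hepatocyte markers (-0.89, adjusted p = 0.00166) fell in HFoleic against the reference. Sox9 of the 3 bile duct markers (-0.65, adjusted p = 0.0279) fell there too, and Lrat of the 4 stellate cell markers rose (0.56, adjusted p = 0.0015). The other Sox9 probe gave -0.19 (adjusted p = 0.415). A dimmer probe of the hepatocyte marker Ttr rose (0.53, adjusted p = 0.00483), while its brightest gave 0.12 (adjusted p = 0.218). The part of these genes in the results below was not tested. Reference replicates 4 and 5 stood apart in genes of fat cells: the log2 signal of Adipoq was 8.59 to 9.71 there against 5.23 to 6.17 on the other 22 arrays, Fabp4 was 12.91 to 13.22 against 9.40 to 10.71, and Retn was 8.21 to 9.38 against 5.80 to 7.55. Adig was 7.92 to 8.39 against 5.61 to 6.22. Lep was not higher there, at 7.25 to 7.56 against 7.40 to 8.10 elsewhere, and Plin1 was 5.91 to 6.37 against 5.58 to 6.20. Cfd and Cidea were high in mice of the other groups as well. Summed over 9 such genes, the signal was 16400 to 20900 on these 2 arrays, 1430 to 4340 in the other reference mice, 1850 to 14600 in HFoleic and 1580 to 8040 in HFepa. Because the reference group enters both diet comparisons and Fasn and Acly are also made by fat cells, the values without these 2 mice are given below. That exclusion was chosen after both the fat cell genes and the members had been seen, and the part of the fat cell signal in any result was not tested.

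The sequences below show what carried the 2 calls of this pathway, and where probes of 1 gene differed. Each probe was 60 bases long, its first 30 are given, and coordinates are those of mm9 in the scanner files. Srebf1 had a single probe, A_51_P401921, at chr11:60013214-60013273 on the minus strand and at position 3616 of its listed transcript, outside the first exon by which SREBP-1a and SREBP-1c differ, so it does not separate them.
Srebf1 A_51_P401921: ggcaccttagtggcttttccctagctgagg
Acacb had 3 tested probes on the plus strand: A_55_P2019054 at chr5:114700702-114700761, position 8419 of its listed transcript; A_66_P110803 at position 3778; and A_55_P2921709 at position 278. The last spans chr5:114596822-114615564, and so crosses an intron.
Acacb A_55_P2019054: cctgaccacttgggtgcgctgaagaggctg
Acacb A_66_P110803: aaacgaccatattcgacgtcctgcccactt
Acacb A_55_P2921709: aagtgtgaacacagttgcctgaatggtctt
No mm9 annotation was used here, so exon and UTR are not given for the probes.

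Promoter sequences of 9 of the 10 genes, with 12 start sites, came from RefSeq (GRCm38.p6), a build whose coordinates cannot be set beside those of the probes. The windows are the 250 bases before a start, 5′ to 3′ on the gene's strand. Capitals mark a match on either strand to the sterol element letters TCACCC, the CCAAT box (CCAAT), the E-box CACGTG or the LXR half-site letters GGTTACT. The 2 genes that passed the test in HFoleic (Srebf1 and Acacb) are shown together with the 2 that passed without reference replicates 4 and 5 (Fasn and Acly).
Srebf1 downstream start, chr11:60210472-60210721, minus strand: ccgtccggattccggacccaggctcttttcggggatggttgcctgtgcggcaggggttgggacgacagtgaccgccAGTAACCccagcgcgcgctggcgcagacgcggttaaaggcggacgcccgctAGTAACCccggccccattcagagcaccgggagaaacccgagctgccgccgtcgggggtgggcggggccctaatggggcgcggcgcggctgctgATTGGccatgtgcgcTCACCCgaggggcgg
Fasn, chr11:120824548-120824797, minus strand: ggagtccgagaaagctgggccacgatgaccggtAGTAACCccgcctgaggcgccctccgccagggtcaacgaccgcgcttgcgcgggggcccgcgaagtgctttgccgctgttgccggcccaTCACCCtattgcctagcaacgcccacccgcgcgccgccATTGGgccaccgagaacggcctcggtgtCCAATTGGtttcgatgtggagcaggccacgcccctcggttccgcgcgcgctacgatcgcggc
Acacb, chr5:114165268-114165517, plus strand: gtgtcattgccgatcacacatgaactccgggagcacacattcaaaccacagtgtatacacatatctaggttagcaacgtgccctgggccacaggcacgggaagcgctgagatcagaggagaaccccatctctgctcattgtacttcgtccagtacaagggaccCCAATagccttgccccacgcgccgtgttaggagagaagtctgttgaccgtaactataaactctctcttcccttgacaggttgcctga
Acly, chr11:100528001-100528250, minus strand: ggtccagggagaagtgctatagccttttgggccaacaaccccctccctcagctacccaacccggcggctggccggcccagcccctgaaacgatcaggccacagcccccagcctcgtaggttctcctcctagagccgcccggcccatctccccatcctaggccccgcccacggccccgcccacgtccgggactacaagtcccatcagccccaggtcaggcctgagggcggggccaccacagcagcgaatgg
The Srebf1 window shown held TCACCC at 15 bases and a CCAAT box at 30 bases before the start, with GGTTACT at 174 and 123 bases. Srebf1 windows not shown lay at chr11:60222582-60222831, with only a CCAAT box at 166 bases, and at chr11:60220628-60220877, with none of the 4 motifs. Fasn held TCACCC at 128, CCAAT at 90, 62 and 59 (the last pair overlap) and GGTTACT at 217 bases. Acacb held only a CCAAT box, at 87 bases, and these 4 motifs were absent from the Acly window. The last letters of the Acacb window, gttgcctga, also occur in the excerpt of probe A_55_P2921709, which crosses an intron. The listed Acacb start may therefore lie within a longer transcript, so its window may not be a promoter. This was not tested. Over the 12 windows, CCAAT was present in 7, TCACCC in 3, GGTTACT in 2 and CACGTG in 1, against 33.8%, 13.8%, 1.88% and 6.02% of the 32851 windows of that length in the RefSeq table. TCACCC and GGTTACT were settled after the windows had been read. The letters first searched for the sterol element, TCACNCC, matched 0 of the 12 windows and 13.4% of all. A match is a description of letters, not of a site in use.

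In HFoleic livers Srebf1 rose about 2-fold over the low-fat reference and Acacb fell, while the other 8 genes did not pass the test. In log2 signal, Srebf1 ranged from 11.41 to 12.96 in the reference mice (median 11.96) and from 12.30 to 13.52 in HFoleic (median 13.12). All 8 HFoleic mice lay above the reference mean and 6 of the 8 lay above every reference mouse. The difference was 1.02 (SE 0.22, 95% confidence interval 0.57 to 1.46, 2.02-fold, limma adjusted p = 0.00552). Within slides 1, 2 and 3 it was 1.18, 1.0 and 0.76, and it kept its call under every alternative tried, with values from 0.85 to 1.18.

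**Figure D1:**
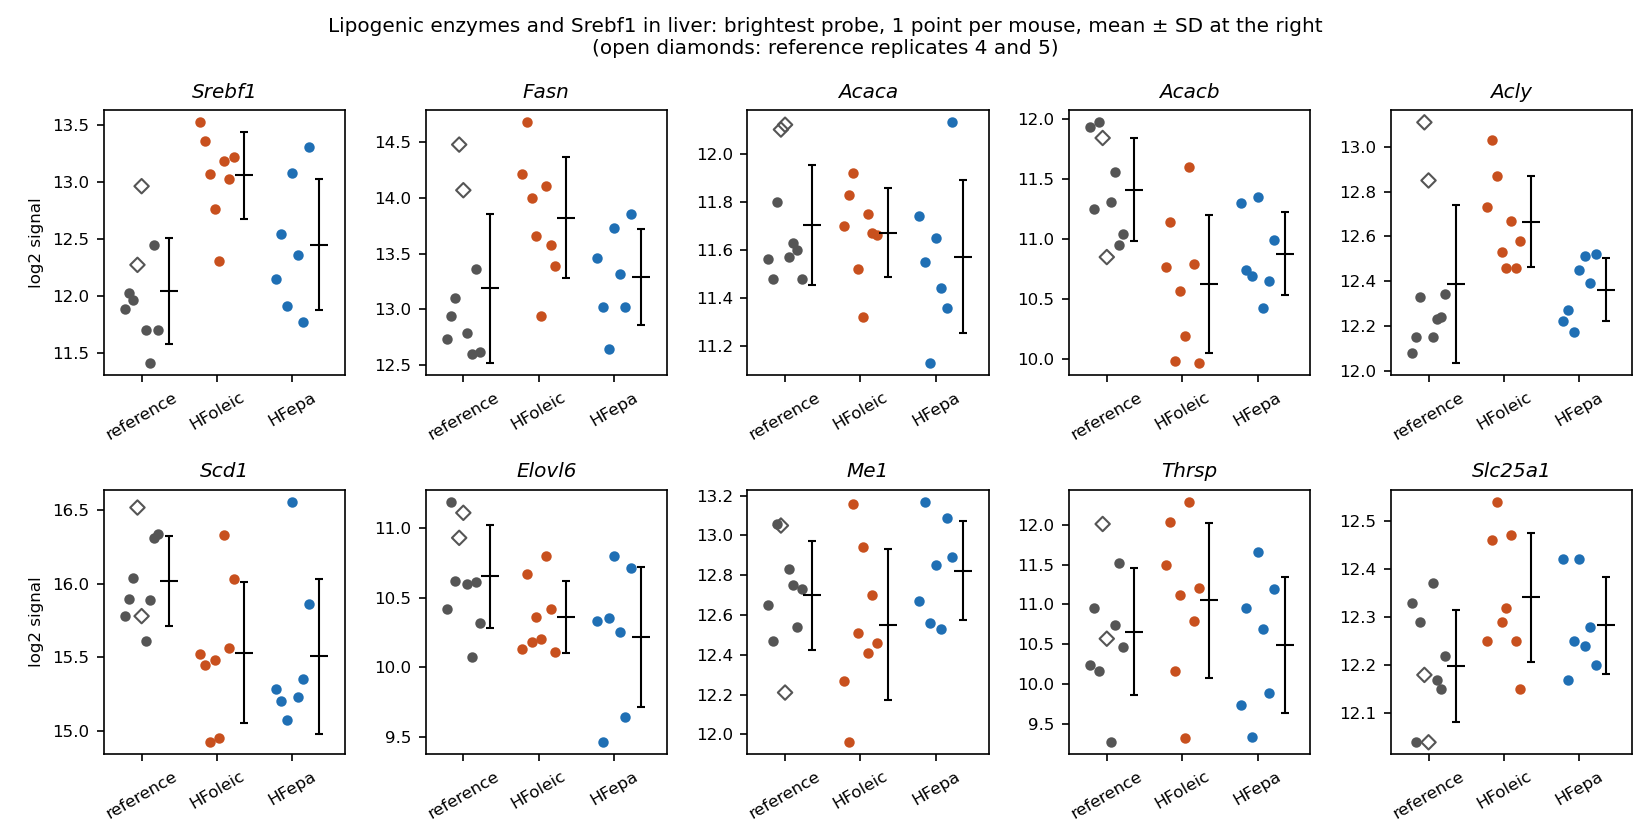
Log2 signal of the brightest tested probe of each of the 10 genes, 1 panel a gene, with 1 point per mouse in the reference (n = 9), HFoleic (n = 8) and HFepa (n = 7) groups and the mean ± SD to the right of each group; open diamonds are reference replicates 4 and 5. Srebf1 is higher and Acacb lower in HFoleic than in the reference, and reference replicates 4 and 5 are the highest reference mice for Fasn and Acly.

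The genes that supply and carboxylate acetyl-CoA did not move as a group. Acacb, the form of acetyl-CoA carboxylase at mitochondria whose malonyl-CoA restrains fatty acid oxidation, ranged from 10.85 to 11.97 in the reference (median 11.31) and from 9.97 to 11.60 in HFoleic (median 10.67). Of the 8 HFoleic mice, 7 lay below the reference mean and 6 below every reference mouse. The difference was -0.78 (SE 0.21, 95% confidence interval -1.22 to -0.35, 0.581 of the reference signal, adjusted p = 0.0225). The fall was seen with the probe at position 8419 alone. The probes at positions 3778 and 278 each differed by -0.10 (SE 0.17 and 0.08, adjusted p = 0.815 and 0.57), and over the 24 arrays they correlated with the first at 0.04 and 0.25. Both were dimmer, with reference means of 8.08 and 6.32 against 11.41 for the first. The probe at position 3778 also ran from 8.16 to 8.80 on slide 2 and from 7.55 to 8.13 on the other slides. With the mean of the 3 probes the Acacb difference was -0.33 (adjusted p = 0.0801), so the fall of Acacb rests on 1 probe.

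Acaca, the cytosolic acetyl-CoA carboxylase that feeds fatty acid synthesis, ranged from 11.48 to 12.12 in the reference (median 11.60) and from 11.32 to 11.92 in HFoleic (median 11.68). The groups overlapped almost wholly, and the difference was -0.04 (SE 0.12, adjusted p = 0.907). The other tested probes of Acaca gave 0.00 and 0.14, and 4 further probes were too dim to be tested. Acly, ATP citrate lyase, ranged from 12.08 to 13.11 in the reference (median 12.24) and from 12.46 to 13.03 in HFoleic (median 12.63). All 8 HFoleic mice were above the reference mean and above 7 of the 9 reference mice, whose highest was 12.34. The remaining reference mice were replicates 4 and 5, at 13.11 and 12.85. The Acly difference was 0.28 (SE 0.12, 1.21-fold, adjusted p = 0.173), and a second probe gave 0.20 (adjusted p = 0.114). Slc25a1, the mitochondrial citrate carrier, ranged from 12.04 to 12.37 in the reference (median 12.18) and from 12.15 to 12.54 in HFoleic (median 12.30), a difference of 0.14 (SE 0.06, adjusted p = 0.182) with overlapping groups and 0.19 at its other probe.

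Fasn, fatty acid synthase, ranged from 12.60 to 14.48 in the reference (median 12.94) and from 12.94 to 14.68 in HFoleic (median 13.83). The reference mice at 14.48 and 14.07 were again replicates 4 and 5, and the highest of the other 7 was 13.36. The difference was 0.63 (SE 0.26, 1.55-fold), with adjusted p = 0.144. Within slides it was 1.1, 0.45 and 0.14.

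Scd1, which makes oleate from stearate, had values in the opposite direction to Srebf1. It ranged from 15.61 to 16.52 in the reference (median 15.90) and from 14.92 to 16.33 in HFoleic (median 15.50), and 6 of the 8 HFoleic mice were below every reference mouse. The difference was -0.49 (SE 0.20, adjusted p = 0.147), and a probe listed on the opposite strand gave -0.71 (adjusted p = 0.0766). Elovl6, which lengthens palmitate to stearate, ranged from 10.07 to 11.19 in the reference (median 10.61) and from 10.11 to 10.80 in HFoleic (median 10.28), a difference of -0.29 (SE 0.18, adjusted p = 0.363) between overlapping groups.

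Me1, malic enzyme, ranged from 12.21 to 13.06 in the reference (median 12.73) and from 11.96 to 13.16 in HFoleic (median 12.49), a difference of -0.15 (SE 0.14, adjusted p = 0.607) that was 0.13 at its other probe. Thrsp varied more between mice of a group than any other of the 10 genes, from 9.27 to 12.01 in the reference (median 10.57) and from 9.32 to 12.29 in HFoleic (median 11.16). Its difference of 0.39 had a 95% confidence interval of -0.42 to 1.21 (adjusted p = 0.63), so these mice do not settle its direction. Its other probe gave 0.40.

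Counted together, 2 of the 10 genes passed the test in HFoleic against the reference, 1 higher and 1 lower, where 8.07% of the 20192 gene names tested did so, 4.52% higher and 3.55% lower. At an unadjusted p under 0.05 there were 6 of 10, beside 22.3% of all gene names. The median difference of the 10 genes was 0.05, beside -0.01 over all gene names.

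**Figure D2:**
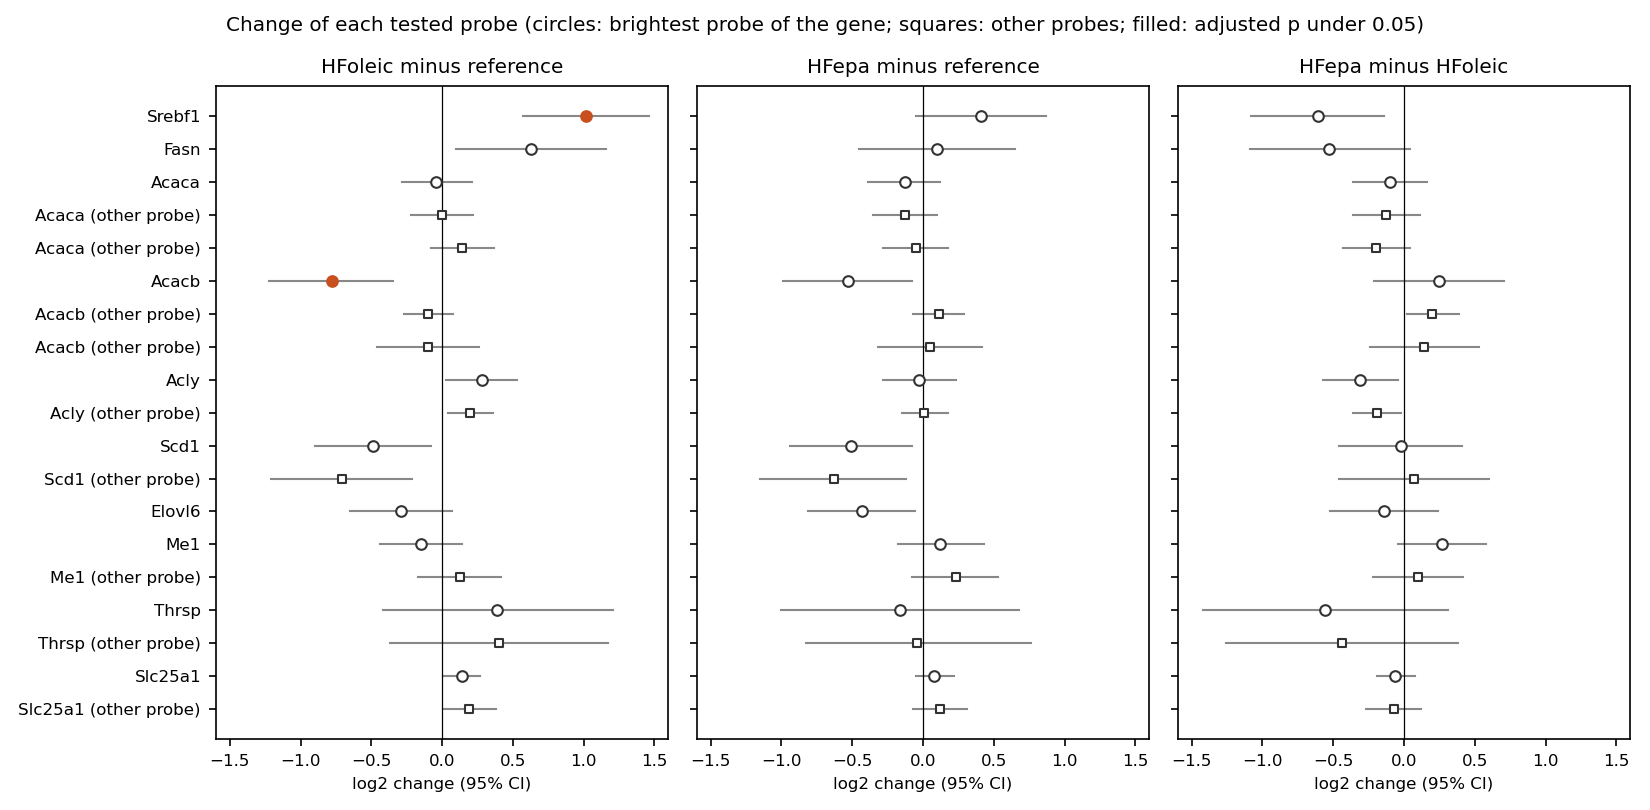
Log2 differences of the 19 tested probes of the 10 genes (circles for the brightest probe of a gene, squares for the others) in the 3 comparisons, with 95% confidence intervals from limma, filled where the adjusted p was under 0.05. The intervals of Srebf1 (0.57 to 1.46) and Acacb (-1.22 to -0.35) in HFoleic minus reference are those filled.

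When reference replicates 4 and 5 were left out, 4 of the 10 genes passed in HFoleic against the remaining 7 reference mice, where 7.54% of all gene names did, 4.05% higher and 3.49% lower. In HFepa against those 7 mice and between the lineages, 0 of the 10 passed in limma, beside 0.00495% and 0.0198% of all gene names. Srebf1 rose by 1.18 (2.27-fold, SE 0.21, adjusted p = 0.0028), Fasn by 0.95 (1.93-fold, SE 0.21, adjusted p = 0.0101) and Acly by 0.45 (1.37-fold, SE 0.08, adjusted p = 0.00328). Acacb fell by 0.81 (SE 0.22, adjusted p = 0.0285). Leaving out replicate 4 alone gave the same 4 calls, with Fasn at 0.80 (adjusted p = 0.0368) and Acly at 0.37 (adjusted p = 0.0245). Over the 24 group-centred arrays the mean of the fat cell list had r = 0.68 with Acly, 0.62 with Fasn and 0.56 with Thrsp, as a description. The calls of Fasn and Acly thus depend on reference mice that also carried the fat cell signal, and on a choice made with their values known.

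**Figure D3:**
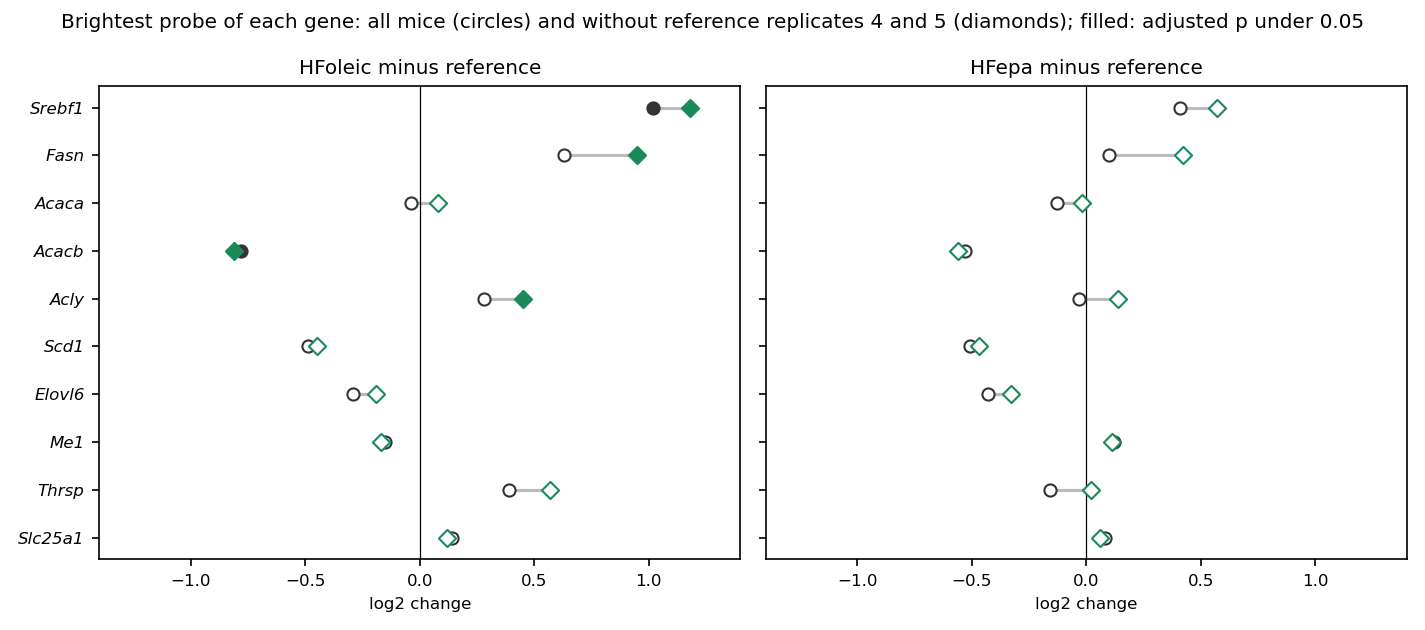
Log2 difference of each of the 10 genes (brightest tested probe) in HFoleic and in HFepa minus reference, with all 9 reference mice (circles) and without reference replicates 4 and 5 (diamonds), filled where the adjusted p was under 0.05. In HFoleic Fasn goes from 0.63 to 0.95 and Acly from 0.28 to 0.45, while Srebf1 and Acacb lie on the same side of 0 in both.

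In HFepa livers none of the 10 genes passed the test against the reference, where 0.391% of all gene names did. At an unadjusted p under 0.05 there were 3 (Acacb, Scd1 and Elovl6), beside 14% of all gene names. The methods' t-test, run on the values as filtered and normalized here, called 0 probes of the whole array after adjustment. The paper reports genes that passed its adjusted threshold in this comparison. The cause of that difference was not tested. Srebf1 ranged from 11.77 to 13.30 (median 12.36) and overlapped the reference, with a difference of 0.41 (SE 0.22, 95% confidence interval -0.05 to 0.87, adjusted p = 0.448). Its values by slide were -0.29, 0.59 and 0.97. Acacb ranged from 10.43 to 11.35 (median 10.74), below the reference mean in 7 of 7 mice, with a difference of -0.53 (SE 0.22, adjusted p = 0.272). The other Acacb probes gave 0.05 and 0.11.

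Fasn ranged from 12.64 to 13.86 in HFepa (median 13.32), a difference of 0.10 from the reference (SE 0.27, adjusted p = 0.916), and Acly from 12.17 to 12.52 (median 12.39), a difference of -0.03 (SE 0.13, adjusted p = 0.961). Without reference replicates 4 and 5 these became 0.42 (adjusted p = 0.47) and 0.14 (adjusted p = 0.531), and Srebf1 became 0.57 (adjusted p = 0.297). Scd1 ranged from 15.07 to 16.56 (median 15.28), a difference of -0.51 (SE 0.21, adjusted p = 0.266), with 1 HFepa mouse above every reference mouse. Elovl6 ranged from 9.46 to 10.80 (median 10.33), a difference of -0.43 (SE 0.18, adjusted p = 0.289). Acaca (11.13 to 12.13, median 11.55), Me1 (12.53 to 13.17, median 12.85), Thrsp (9.34 to 11.66, median 10.69) and Slc25a1 (12.17 to 12.42, median 12.25) differed from the reference by -0.13, 0.12, -0.16 and 0.08. The median difference of the 10 genes was -0.08, beside 0.00 over all gene names. This comparison and that of HFoleic share the 9 reference mice.

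Between the lineages on the obesogenic diet, 0 of the 10 genes passed in limma, as did 0% of all gene names; 2 of the 10 had an unadjusted p under 0.05, beside 9.96% of all gene names. Srebf1 was lower in HFepa than in HFoleic by a log2 difference of -0.61 (SE 0.23, 95% confidence interval -1.08 to -0.14, unadjusted p = 0.0139, adjusted p = 0.373). The difference was -1.48, -0.41 and 0.21 within slides 1, 2 and 3, so it did not hold its sign on every slide. Acly was -0.31 (SE 0.13, unadjusted p = 0.025, adjusted p = 0.431), with 7 of 7 HFepa mice below the HFoleic mean. Fasn was -0.53 (SE 0.27, adjusted p = 0.545) and Thrsp -0.56 (SE 0.42, adjusted p = 0.698). Acacb (0.25), Me1 (0.27), Scd1 (-0.02), Elovl6 (-0.14), Acaca (-0.10) and Slc25a1 (-0.06) did not pass either. Srebf1 thus passed the test against the reference in HFoleic and not in HFepa. On these arrays this is not shown to be a difference between the lineages. The paper's RT-qPCR, not re-analysed here, gave lower Srebf1 in HFepa than in HFoleic, a change it marks as significant. The median of the 10 genes was -0.12, beside 0.01 over all gene names.

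Mouse by mouse, with each group centred on its own mean, several genes followed Srebf1. Of 9 relations with Srebf1 over the 24 mice, 6 passed a permutation test after Benjamini-Hochberg adjustment over the 9, by Pearson's r and by Spearman's rho. Fasn had r = 0.76 (permutation p = 2e-05, adjusted p = 0.00018) and rho = 0.81 (p = 1e-05, the smallest these permutations can give). Acaca, which did not differ between groups by the test, had r = 0.74 (p = 0.00022, adjusted p = 0.00099) and rho = 0.71. Thrsp had r = 0.66 (p = 0.00091, adjusted p = 0.00273) and rho = 0.73. Without the 2 mice farthest from the median of group-centred Srebf1, reference replicate 5 and HFepa replicate 7, these r were 0.71, 0.58 and 0.77 (adjusted permutation p = 0.00072, 0.017 and 0.00072).

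Acly (r = 0.55, p = 0.00474, adjusted p = 0.0107, rho = 0.58), Elovl6 (r = 0.55, p = 0.0131, adjusted p = 0.0235, rho = 0.48) and Scd1 (r = 0.49, p = 0.0207, adjusted p = 0.0311, rho = 0.51) had lower r with Srebf1. Without the 2 farthest mice Scd1 passed (r = 0.61, adjusted permutation p = 0.017), and Acly (0.43, adjusted p = 0.0663) and Elovl6 (0.42, adjusted p = 0.122) did not. That fit has fewer mice and a narrower range of Srebf1, so a lost call does not show that the relations rest on those mice. Over the 35 other alternatives Acly passed in 34, and Elovl6 and Scd1 each in 27. Acacb, Slc25a1 and Me1 did not pass, with r of 0.10, -0.20 and -0.34 (adjusted permutation p = 0.646, 0.397 and 0.134). Within the reference, HFoleic and HFepa groups, r with Srebf1 was 0.79, 0.79 and 0.82 for Fasn, 0.68, 0.77 and 0.79 for Acaca, and 0.40, 0.76 and 0.89 for Thrsp. It was 0.60, 0.61 and 0.61 for Acly, 0.14, 0.47 and 0.76 for Scd1 and 0.73, 0.16 and 0.58 for Elovl6, lowest for Scd1 in the reference and for Elovl6 in HFoleic. Among HFepa mice Srebf1 was 11.77 and 11.91 on slide 1, 12.15 to 12.54 on slide 2, and 13.08 and 13.30 on slide 3. The r values within HFepa therefore cannot be told apart from a difference between slides.

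Within slides 1, 2 and 3 the r of Fasn was 0.87, 0.36 and 0.40, that of Acaca 0.59, 0.49 and 0.29, and that of Thrsp 0.09, 0.87 and 0.64. With the slide as a block, Fasn (0.71), Acaca (0.70), Thrsp (0.58) and Acly (0.51) passed, and Elovl6 (0.44, adjusted p = 0.0704) and Scd1 (0.38, adjusted p = 0.0964) did not. Elovl6 was -0.43 within slide 2. Without reference replicates 4 and 5, r was 0.78 for Fasn, 0.69 for Acaca, 0.75 for Thrsp and 0.60 for Scd1, while Acly (0.48, adjusted p = 0.0547) and Elovl6 (0.48, adjusted p = 0.0827) no longer passed. All values of a mouse come from 1 array, so the array's own error is shared between the genes.

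**Figure D4:**
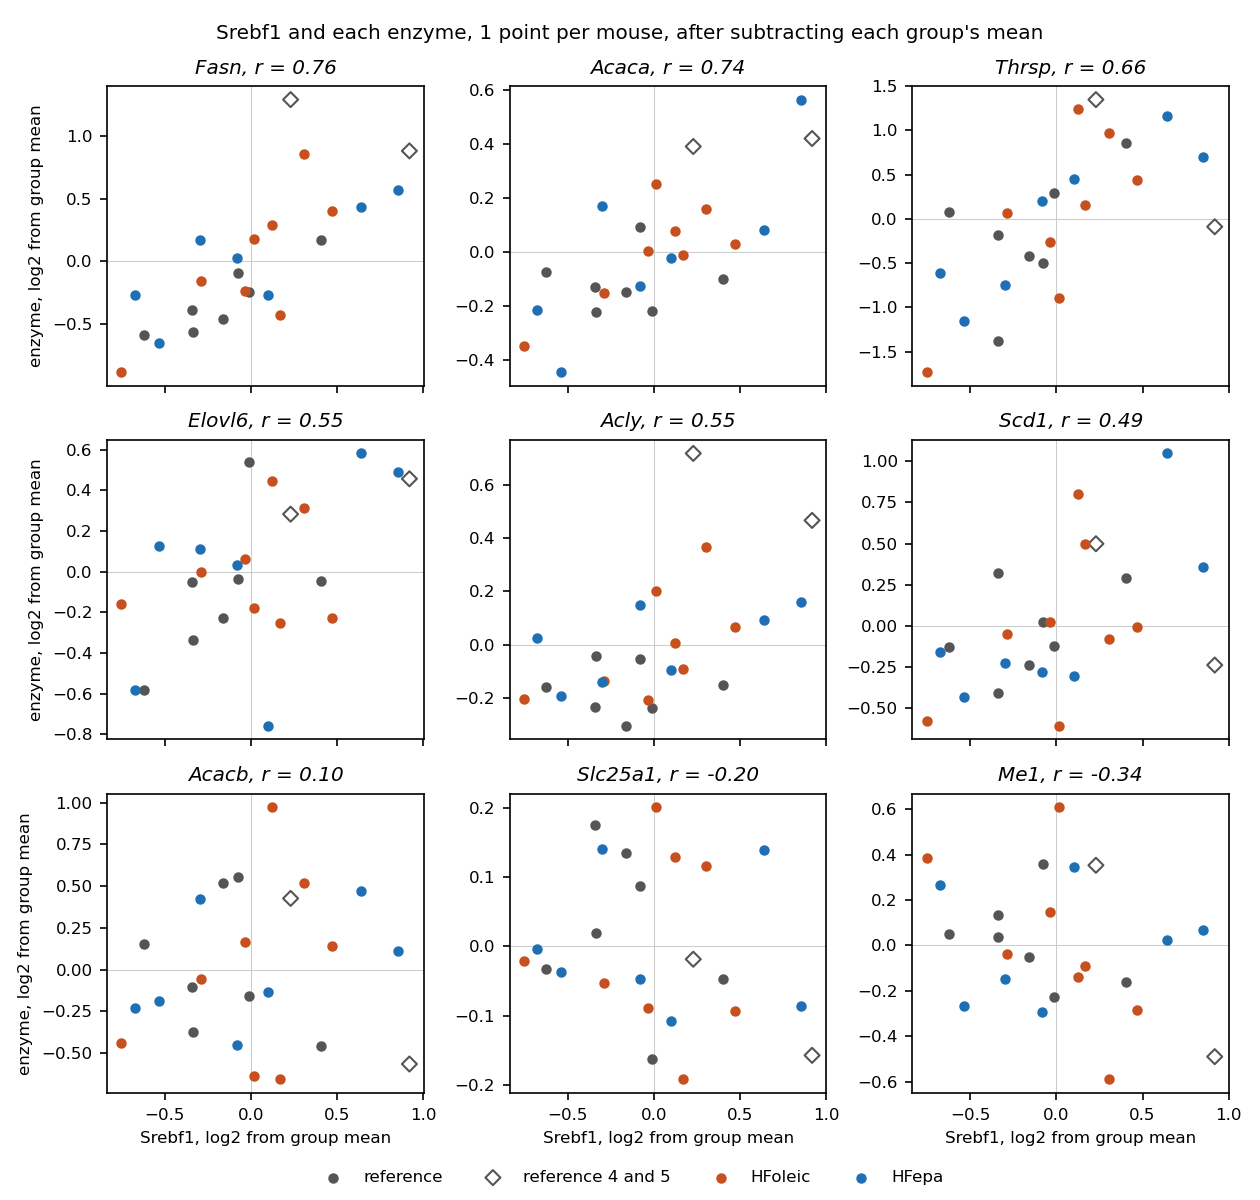
Log2 signal of Srebf1 (horizontal axis) against the other genes (vertical axis) in 24 mice, each group centred on its mean, 1 point per mouse coloured by group; open diamonds are reference replicates 4 and 5. Points rise together for Fasn (r = 0.76), Acaca (r = 0.74) and Thrsp (r = 0.66), and do not for Acacb (r = 0.10).

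By the rule of the 5 closest genes, those whose group-centred log2 signal was most like the mean of the 10 genes over the 24 arrays, among 19037 gene names compared, included Timp1 (r = 0.80), Rhof (0.79) and Bhlhe40 (0.77), with transcripts ENSMUST00000117318 and ENSMUST00000182021 at 0.75. Bhlhe40, a transcriptional repressor linked to the clock, was also higher in HFoleic than in the reference (0.75, adjusted p = 0.0265). For Srebf1 alone the closest were Erlin1 (0.86), 5830416P10Rik (0.83), Cdpf1 (0.83), Gm9530 (0.82) and Timp1 (0.82). Erlin1, an endoplasmic reticulum protein, had a difference of 0.44 in HFoleic (adjusted p = 0.0082), and Timp1 one of 0.02.

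The regulators and feeder enzymes of the pathway included genes that rose 2-fold or more. Of 46 genes in 4 lists, 45 were tested, and in HFoleic 8 passed, 6 higher and 2 lower, beside the 8.07% of all gene names given above. Insig1, which holds SREBP in the endoplasmic reticulum and is itself a target of SREBP, ranged from 7.01 to 8.30 in the reference and from 8.65 to 10.32 in HFoleic, with no overlap. It rose by 1.47 (2.77-fold, SE 0.21, adjusted p = 0.000401). Mid1ip1, which activates acetyl-CoA carboxylase and is related to Thrsp, ranged from 10.26 to 11.25 in the reference and from 11.50 to 12.75 in HFoleic, again with no overlap, and rose by 1.20 (2.30-fold, SE 0.18, adjusted p = 0.000481).

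Among the regulators, 3 of 14 rose and 2 fell, beside 4.52% and 3.55% of all gene names. Insig1, Mlxipl (0.55, SE 0.10, adjusted p = 0.00163) and Usf1 (0.19, adjusted p = 0.0456) rose. Insig2, whose liver form is raised by fasting, fell by 0.55 (SE 0.12, adjusted p = 0.00638), and Mbtps2, the protease that releases SREBP from the membrane in its second cut, fell by 0.23 (adjusted p = 0.026). Other probes of Mlxipl gave -0.05 and 0.31, so its rise is not shared by all of them, and the other probes of Insig2 gave -0.58 (adjusted p = 0.00729) and -0.29 (adjusted p = 0.178). The call of Usf1 held under 12 of 38 alternatives, and its other probe gave 0.12 (adjusted p = 0.262). That of Mbtps2 gave -0.11 (adjusted p = 0.536). A dimmer probe of Srebf2, the relative that mainly serves cholesterol synthesis, passed at 0.42 (adjusted p = 0.0486), while its brightest gave 0.05. Usf2 (0.24), Ppargc1b (-0.16) and Mbtps1 (0.12) did not pass. In the list for glucose entry and acetyl-CoA supply and control, 2 of 13 rose and 0 fell, beside the same shares. The 2 were Mid1ip1 and Mpc1, a subunit of the mitochondrial pyruvate carrier (0.33, adjusted p = 0.00858). Pklr, liver pyruvate kinase and a target of ChREBP, had 0.36 (adjusted p = 0.105), and Acss2 0.29.

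In the NADPH list 1 of 6 rose, beside 4.52% of all gene names. It was cytosolic isocitrate dehydrogenase Idh1 (0.20, adjusted p = 0.0316), whose call held under 26 of 38 alternatives. The other probe of Idh1 gave 0.22 (adjusted p = 0.0639). G6pdx (-0.18), Tkt (0.12) and Taldo1 (0.11) did not pass. Of the 12 tested genes of elongation, desaturation and esterification, 0 passed in limma, and 5 had an unadjusted p under 0.05, beside 22.3% of all gene names. Dgat2, which closes triglyceride synthesis, had 0.35 (adjusted p = 0.0706), Elovl5 had -0.24 and Scd2 had -0.34. Dimmer probes of this list passed for Fads1, a desaturase of polyunsaturated fatty acids (0.92, adjusted p = 0.0108, against 0.05 and 0.09 at its other probes), and for Elovl5 (-0.49, adjusted p = 0.049). The highest reference value of Scd2 was 10.37 with all 9 mice and 8.22 without replicates 4 and 5, and that of G6pdx 10.31 and 8.81. Without those mice both turned to 0.10 and 0.09, neither passing, and 6 pathway genes passed: Insig1, Insig2, Mbtps2, Mlxipl, Mpc1 and Mid1ip1.

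In HFepa against the reference 1 of the 45 passed, Mlxipl (0.44, adjusted p = 0.0458), while 11 had an unadjusted p under 0.05. Of all gene names 0.391% passed and 14% had an unadjusted p under 0.05. The dimmer probe of Hlcs, which attaches biotin to the carboxylases, also passed (-0.55, adjusted p = 0.0377), while its brightest, which stands for the gene, gave -0.39 (adjusted p = 0.482). Insig1 ranged from 7.94 to 9.06 in HFepa (0.92, adjusted p = 0.0543) and Mid1ip1 from 10.77 to 11.76 (0.50, adjusted p = 0.202), and Insig2 had -0.53 (adjusted p = 0.0543). The call of Mlxipl held under 9 of 38 alternatives. For this gene (Chrebp) the paper marks a change on its arrays in HFepa against the reference, and none by RT-qPCR. Its RT-qPCR, not re-analysed here, marks lower Chrebp in HFepa than in HFoleic, where Mlxipl was -0.11 here (limma adjusted p = 0.771). Between the lineages 0 of the 45 passed in limma, as did 0% of all gene names, and 5 had an unadjusted p under 0.05, beside 9.96%. Mid1ip1 was -0.70 (adjusted p = 0.208) and Insig1 -0.55 (adjusted p = 0.41).

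**Figure D5:**
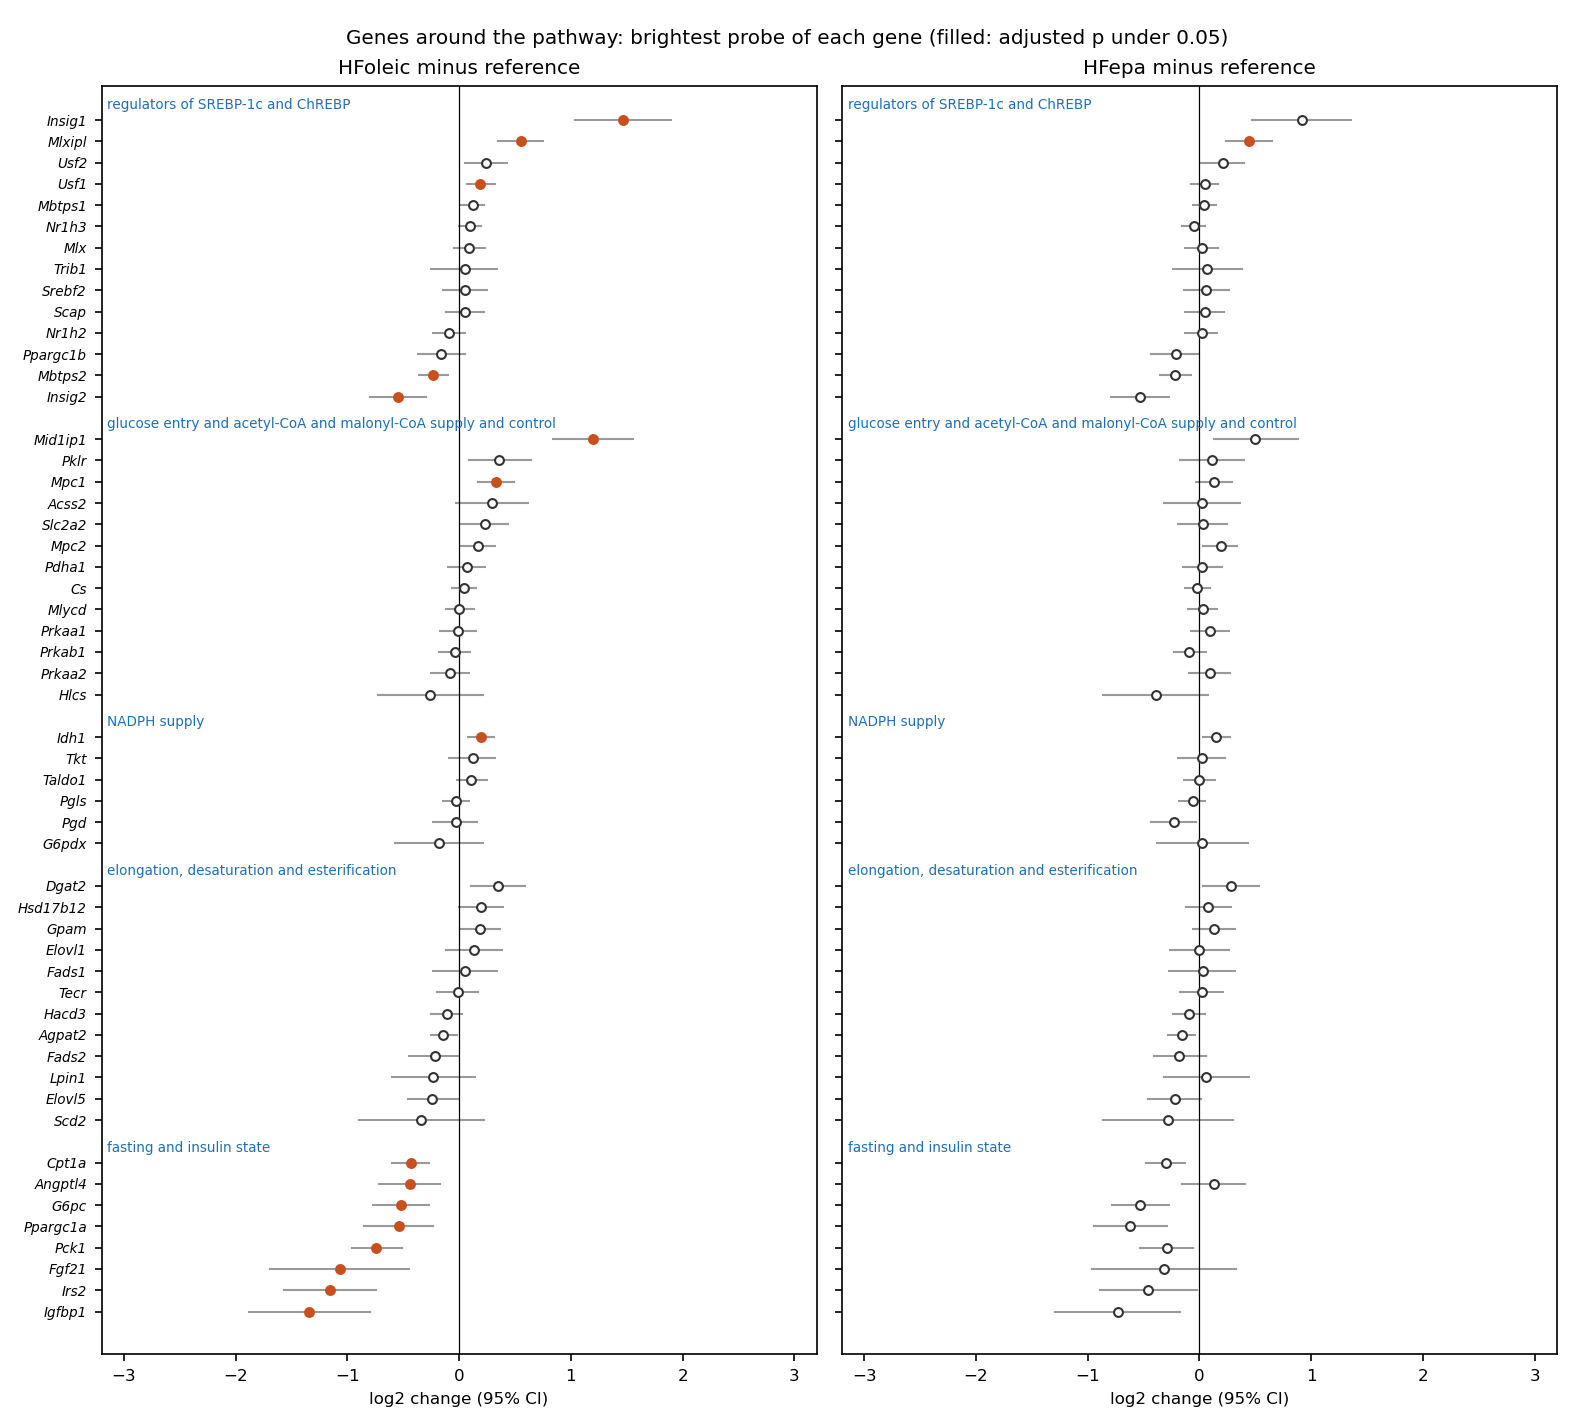
Log2 differences of the tested genes of the 4 pathway lists and of the fasting and insulin list in HFoleic minus reference and HFepa minus reference, 1 point per gene (brightest tested probe) with its 95% confidence interval, filled where the adjusted p was under 0.05. Of the 45 pathway genes 8 are filled in HFoleic, with Insig1 (1.47) and Mid1ip1 (1.20) highest, and 1 in HFepa.

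Genes that follow fasting and insulin moved with the HFoleic group. Of the 8 counted here, 8 fell in HFoleic, where 3.55% of all gene names did: Igfbp1 by 1.34 (adjusted p = 0.00344), Irs2 by 1.16 (adjusted p = 0.00169), Fgf21 by 1.07 (adjusted p = 0.0296), Pck1, the gate of gluconeogenesis, by 0.74 (adjusted p = 0.000602), and Ppargc1a, G6pc, Angptl4 and Cpt1a by 0.43 to 0.54. In HFepa 0 of 8 passed in limma against the reference, where 6 had an unadjusted p under 0.05, beside 14% of all gene names. Between the lineages 0 of 8 passed and 5 had an unadjusted p under 0.05, beside 9.96%. The count ran from 4 (with the clock score described next as a covariate) to 8 over the alternatives in HFoleic, with 5 without reference replicate 1, HFoleic replicate 2 or HFoleic replicate 8. In HFepa it ran from 0 to 5, with 5 without reference replicate 8 and 2 without HFepa replicate 3. Over the 24 group-centred arrays, the mean of this list had r = -0.61 with Thrsp and -0.59 with Scd1, as a description.

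Of 8 clock genes of the Per phase 1 passed in HFoleic, Nr1d2, a repressor under clock control (0.58, adjusted p = 0.01), and of 4 of the Bmal1 phase 0 passed in limma, beside 8.07% of all gene names. A score of clock phase was the mean of the standardised Bmal1 phase genes minus that of the Per phase genes. The score averaged 0.83 ± 1.01 over the 9 reference mice, -0.69 ± 1.30 over the 8 HFoleic mice and -0.28 ± 2.01 over the 7 HFepa mice (mean ± SD). Its r with group-centred Scd1, Elovl6 and Thrsp was -0.68, -0.57 and -0.50. With this score as a covariate 3 of the 10 genes passed in HFoleic: Srebf1 at 0.85 (adjusted p = 0.041), Acacb at -0.97 (adjusted p = 0.0158) and Scd1 at -0.80 (adjusted p = 0.0103). The share of all gene names that passed in this fit is not given here, so the count of 3 has no background beside it. The mean score differed between the groups, so this fit cannot separate clock phase from diet. The part of time of day in the changes of the 10 genes was not tested beyond it. The fit has no term for fasting state, whose part was not tested.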

How the data were processed

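RNA was measured in 24 mouse livers on Agilent arrays. For each array the authors deposited the scanner output (Agilent Feature Extraction 10.10.1.1, per the submitters' processing notes), in which the median and mean signals are intensities without normalization and the processed signal is an intensity corrected for background, per the file headers. A second kind of file from the authors holds log2 values after filtering and quantile normalization, in 32176 rows with 2550 empty cells; its filter is not given in the sources used here.

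Here log2 median signals were taken without outlier spots, spots of a probe were averaged, and probes had to be well above background in 75% or more of the arrays of any group. Values were quantile normalized and fitted in limma 3.58.1 (R 4.3.3) with 1 mean per group and Benjamini-Hochberg adjustment over all 30003 probes at 0.05. Relations used 100000 two-sided permutations within groups (scipy 1.17.1). Scripts were tested on simulated data. The marks for spots well above background and outlier spots are 0 or 1 per the file headers. Pathway genes were named if they passed in any comparison, together with up to 3 per list that did not, by size of change. A gene of the pathway lists and a gene of the fasting list are not reported here and are left out of every list count, so those counts do not cover the lists whole. The members and lists were chosen with earlier results of these data known. Alternatives covered background correction, scaling, filter, slide, replicate number, clock score, the methods' t-test, the mean of a gene's probes and leaving out each mouse. Each mouse had 1 array, and the number of arrays limits precision.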

Additional observations from a re-analysis of the deposited data

How the results depend on the processing

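Srebf1 kept its direction and its call in HFoleic under all 38 alternatives, and 0 of the 10 genes passed in either HFepa comparison under any of them. In HFoleic against the reference the count of genes that passed was 1 with the methods' t-test (Acacb at adjusted p = 0.0746), 1 with the mean of all probes of a gene, and 4 without reference replicates 4 and 5, an alternative chosen after seeing the data. Leaving out 1 mouse at a time gave 1 to 4. Without HFoleic replicate 3 or 8 Acacb was lost (-0.69 in both, adjusted p = 0.0513 and 0.0558), and without reference replicate 4 Fasn and Acly were gained. The pathway genes that passed in HFoleic were 3 with the clock score as a covariate, 5 with no filter on dim probes, and 5 to 11 when a mouse was left out (5 without HFoleic replicate 1 or 2). Those in HFepa against the reference, 1 in the fit reported, were 0 with processed or median signal scaled to the 75th percentile, no filter, slide or slide row as a block, the clock score, only the groups compared, the t-test, the mean of probes, or without reference replicates 4 and 5; they were 2 with normexp, 3 with probes well above background on all arrays, and 0 to 3 when a mouse was left out.

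The values that changed sign had passed no test. Acaca in HFoleic went to 0.01 (75th percentile of the median signal), 0.04 (mean of probes) and 0.08 (without reference replicates 4 and 5), and from -0.07 to 0.02 when a mouse was left out. Without reference replicates 4 and 5, G6pdx and Scd2 in HFoleic went to 0.09 and 0.10, and Acly and Thrsp in HFepa against the reference to 0.14 and 0.02; leaving out 1 mouse gave -0.06 to 0.06 for Acly and -0.36 to 0.03 for Thrsp. Thrsp in HFoleic was -0.06 with the clock score. Scd1 between the lineages was 0.02 with the slide block, 0.04 with the replicate block, 0.06 with the clock score and 0.03 with the mean of probes, and -0.20 to 0.09 when a mouse was left out. The r of Srebf1 with Acacb was -0.09 (slide), -0.04 (clock score) and -0.25 (mean of probes). The cause was not tested.

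The replicate numbers did not pair the mice: of 22 same-number pairs 5 had a correlation of deviations over 0.1, with a mean of -0.002. With the replicate number as a block, 2, 0 and 0 of the 10 genes passed in the 3 comparisons, as without it. The relations with Srebf1 that passed were 4 to 6 of 9 over the alternatives. Quantile scaling assumes like distributions on all arrays, and dim probes give no value for 4 of the 7 Acaca probes.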
